A study of Homo sapiens with 4 samples.

Results

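Translation factor genes and related genes whose mRNAs carry a 5′ terminal oligopyrimidine (TOP) motif were followed in TT-seq libraries of human cells that relied on a transfected RNA polymerase II. The genes were EEF1A1, EEF1B2, EEF1D, EEF1G and EEF2, which encode elongation factors, EIF4B, EIF3E and EIF3H, which encode initiation factors, PABPC1, which encodes the main cytoplasmic poly(A)-binding protein, and TPT1. They were taken by symbol, with earlier results of these data known, and all 10 have a row among the 60708 genes of the deposited count table. TT-seq uses a brief pulse of 4-thiouridine (4-SU) to mark newly made RNA, which is fragmented, purified and sequenced, and it thus reads introns as well as exons. HEK293, a line from human embryonic kidney, was used with the genotype RPB1 degron. RPB1 is the largest subunit of RNA polymerase II and bears the carboxyl-terminal domain (CTD), and a degron is a tag through which auxin brings about the destruction of the protein. In both groups a plasmid for RPB1 was transfected, auxin was added 48 h later and kept for 48 h, and RNA was labeled for 20 min. In the WT group (2 libraries) the plasmid encoded the 52x wild-type CTD, and in the T4A group (2 libraries) every repeat of the 52x CTD carried T4A, alanine in place of threonine 4. Transfection was transient, so expression may differ from cell to cell, and there was no group that kept its own RPB1. The comparison asks whether the synthesis of these RNAs differs when threonine 4 of the CTD is absent.

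A TOP mRNA starts with a cytidine followed by an unbroken run of pyrimidines. In growing cells such mRNAs, which encode ribosomal proteins and many translation factors, are translated under the control of the kinase mTOR and of LARP1, a protein that binds the capped TOP start when mTOR is inactive. Many of these genes are highly transcribed in dividing cells. In the libraries here their rank by mean count ran from 123 for EIF3H to 3841 for EEF1D and 5931 for EEF1B2, among 23321 tested genes. Such a rank also depends on the length that was counted. TT-seq measures the making of the RNA and not its translation.

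The annotated starts of the genes were read from RefSeq windows of GRCh38.p14, which hold 6 of the 10 genes. The lines show what the group shares by its definition, with 10 bases before the annotated start and 20 bases from the start on, 5′ to 3′. Capitals mark a C followed by at least 4 letters that are each C or T, beginning at the annotated first base.
EEF1A1: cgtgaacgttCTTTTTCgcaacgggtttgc
EEF2: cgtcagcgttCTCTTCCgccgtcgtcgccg
EEF1B2: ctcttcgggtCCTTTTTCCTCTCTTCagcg
EIF4B: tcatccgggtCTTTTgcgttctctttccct
TPT1: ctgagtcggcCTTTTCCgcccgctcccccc
EEF1G: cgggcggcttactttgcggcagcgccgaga
The windows lie at chr6:73521013-73521042 (minus strand) for EEF1A1, chr19:3985444-3985473 (minus) for EEF2, chr2:206159885-206159914 (plus) for EEF1B2, chr12:53006446-53006475 (plus) for EIF4B, chr13:45341164-45341193 (minus) for TPT1 and chr11:62573872-62573901 (minus) for EEF1G. In 5 of these genes the run began at the annotated first base, with 7 letters in EEF1A1, EEF2 and TPT1, 16 in EEF1B2 and 5 in EIF4B. EEF1G had no such run within 3 bases of its annotated start, and neither had a further RefSeq start of EEF1B2. A run at the first base was found in 4.07% of all 35116 windows and in 60.3% of the 78 windows of cytosolic ribosomal protein genes, whose mRNAs are the best known TOP mRNAs. Only the strand of the RNA was searched. EEF1D, EIF3E, EIF3H and PABPC1 were not in the table of windows.

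What the counts cover differed between the genes. Lengths in the table were spans from first to last base, with introns counted, and all 1120 lncRNA genes inside a gene of their own strand with at least 1000 counts are listed at 0, against 14.2% of the 2978 on the other strand only. Reads over genes of the same strand were thus not counted. EEF1G, which encodes the gamma subunit of the factor that recharges EEF1A with GTP, lies at chromosome 11 from 62559596 to 62574086 of GRCh38, and 14484 of its 14491 bases (99.95%) are shared with ENSG00000255508, a longer gene of the same strand. It is listed with 1 and 0 counts in the WT libraries and with 0 and 1 in the T4A libraries. Its synthesis was therefore not measured, since these counts lie under the 3 counts that a count of 0 allows (0.0658 to 0.0904 CPM, the usual scaling of counts to a common library total, counting error only), and 9 of the 10 genes passed the filter on low counts. For the others at most 12.9% of the span was shared with genes of the same strand, the highest share in EEF1B2, where small RNA genes such as SNORA41 and SNORD51 lie in the gene.

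The spans themselves were longer than the RefSeq genes in some cases. EIF3E (chromosome 8, 108162787 to 108443496) was counted over 280710 bases, 5.91 times its RefSeq span, and its counted start lies 194779 bases upstream of the RefSeq start. EEF1A1 (chromosome 6, 73489308 to 73525587) was counted over 36280 bases, 6.87 times its RefSeq span of 5283 bases. PABPC1 (chromosome 8, 100685816 to 100722809) was counted over 1.93 times its RefSeq span. In the remaining genes this ratio was at most 1.12. Only uniquely aligned reads were counted, and copies of a gene elsewhere take reads away from it. Under the names of these genes the annotation lists 49 pseudogenes for EEF1A1, 15 for TPT1, 13 for PABPC1, 9 for EIF4B, 8 each for EEF1B2, EEF1D and EEF1G, 3 for EIF3E and 0 for EEF2 and EIF3H. The 49 pseudogenes of EEF1A1 together held 96 to 126 counts a library, and EEF1A1 held 14924 to 17795. Levels of genes with near-identical copies are uncertain for this reason.

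The libraries held 33188536 to 45605027 counts. POLR2A, the gene of RPB1 and the one that the plasmids supply, was the most counted gene of all 4 libraries, with 9640 and 8720 normalized CPM in WT and 7492 and 8083 in T4A (adjusted p = 0.659, edgeR). All 7 markers chosen for HEK293 exceeded 3 counts in some library, with a summed 345 to 406 CPM, most of it from CDH2 and NEFL, but NEFM and INA were near 0 (at most 0.132 and 0.153 CPM). The marker lists of blood cells, fibroblasts and hepatocytes each summed to at most 4.46 CPM in any library. T4A replicate 1 stood apart. Its log2 CPM correlated at 0.974 to 0.979 with the other libraries, which correlated at 0.988 to 0.991 with each other, and its ratio to the WT mean fell with the GC content of the gene, with a Spearman correlation of −0.33 over 23162 genes, against 0.11 in T4A replicate 2. The WT libraries differed from each other with GC content too, at 0.29 and −0.29 for their ratios to their own mean, which are mirror images by construction, and the size of the trend in T4A replicate 1 is given with EEF2 and EEF1D. Results with and without it are given below for EEF2, EEF1D and the medians of some lists. Calls given below for a fit without T4A replicate 2 have T4A replicate 1 as their only T4A library. The labels do not say whether replicates came from separate cultures, so p-values measure the spread between these libraries, which may be technical. In bulk libraries fewer cells that make an RNA and less RNA made per cell cannot be told apart, and levels are relative to the other genes of a library.

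None of the 9 measured genes differed between T4A and WT at an adjusted p-value below 0.05 in edgeR's quasi-likelihood test. Over all 23321 genes tested, 0.00429% were called, which is 1 gene. At an unadjusted p-value below 0.05, 0 of the 9 genes passed in either direction, against 7.45% of all genes that were higher and 8.02% that were lower. DESeq2 likewise called 0 of the 9 (3.9% of all genes). The count at an unadjusted p-value below 0.05 depended on the fit. In DESeq2, 2 of the 9 were higher at that threshold (4.96% of all genes) and 0 lower. The 2 were EEF1A1 and PABPC1, with adjusted p-values of 0.0668 and 0.107 (DESeq2). With library size or the upper quartile in place of TMM, 3 were higher and 0 lower. With at least 10 counts in every library it was 0 in both directions, and with the replicate number as a block 1 was lower. The normalized CPM of the 9 genes summed to 2309.6 and 2370.8 in WT and to 2354.3 and 2376.1 in T4A, which is 2340.2 ± 43.3 (SD, n = 2) and 2365.2 ± 15.4 (SD, n = 2). The sums of the groups overlapped. The median log2 fold change of the 9 genes was −0.01, as was its difference from the median of all tested genes. Taken library by library against the WT mean, the median of the 9 genes less that of all genes was −0.02 and 0.02 in WT and 0.05 and 0.06 in T4A, so it was higher in both T4A libraries, while the median of the fitted values lay just below 0. These medians covered 3 patterns. In EEF1A1, PABPC1 and TPT1 both T4A libraries lay above both WT libraries (3 of 9, against 24.8% of all genes), in EEF1B2 and EIF3E both lay below (2 of 9, against 24.7%), and in EEF1D, EEF2, EIF4B and EIF3H the groups overlapped.

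**Figure D1:**
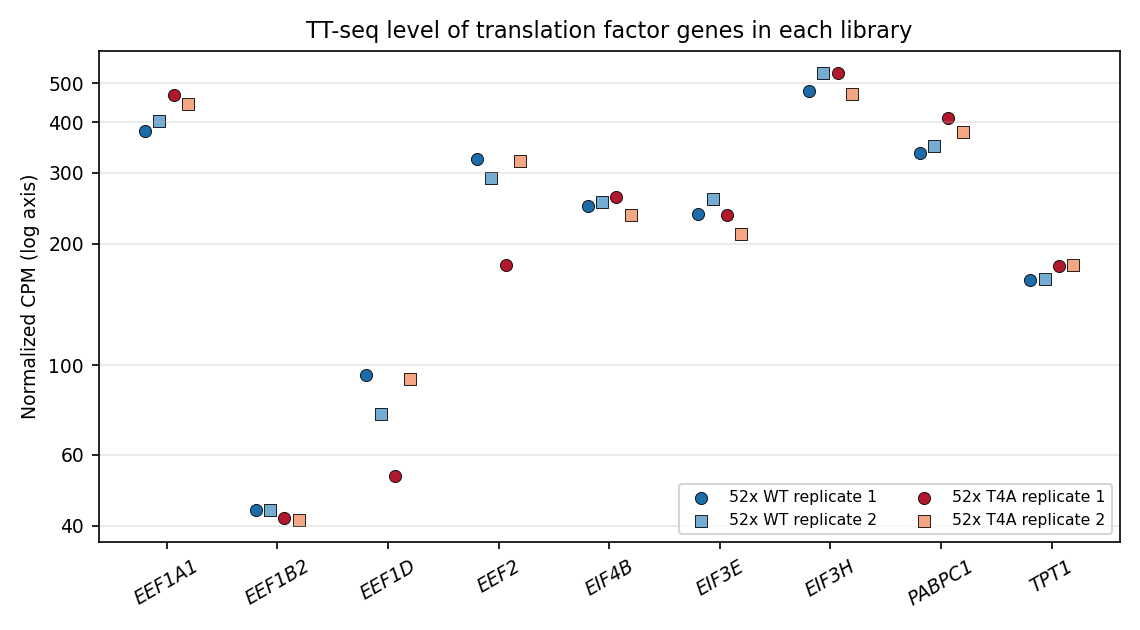
Normalized CPM (vertical log axis) of the 9 measured genes in each of the 4 libraries, 1 point per library. EEF1A1, PABPC1 and TPT1 have both T4A points above both WT points, and EEF2 and EEF1D have a single low point, T4A replicate 1.

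EEF1A1 encodes eEF1A, the GTPase that delivers aminoacyl-tRNA to the ribosome, and it had the highest log2 fold change of the 9. Its level was 381 and 404 normalized CPM in the WT libraries and 468 and 445 in the T4A libraries. Both T4A libraries were higher than both WT libraries. The log2 fold change was 0.22 (standard error 0.10, 95% interval −0.02 to 0.46, adjusted p = 0.357, edgeR), or 1.16-fold with an interval from 0.986-fold to 1.37-fold. The gap between the groups exceeded the gap within either, but the change did not pass the test. Over 13 alternative fits the log2 fold change ran from 0.17 to 0.30 and the adjusted p-value from 0.0225 to 0.828. A gene on the other strand, MTO1, overlaps 54.9% of the counted span of EEF1A1, and its log2 fold change was −0.04 (adjusted p = 0.853, edgeR). EEF1A1-AS1, also on the other strand, had 7.0 and 6.40 normalized CPM in WT and 8.28 and 7.72 in T4A (log2 fold change 0.26, adjusted p = 0.484, edgeR).

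PABPC1, whose protein coats the poly(A) tail and aids initiation, had values close to those of EEF1A1. It had 337 and 351 normalized CPM in WT and 409.9 and 379 in T4A. Here too both T4A libraries were the higher ones, T4A replicate 1 most of all. The log2 fold change was 0.20 (standard error 0.10, interval −0.03 to 0.43, adjusted p = 0.381, edgeR). TPT1, which encodes a small abundant protein linked to growth and often used as an example of a TOP mRNA, had 162.4 and 164.1 normalized CPM in WT and 176.6 and 176.9 in T4A. The replicates of either group were nearly equal, and the groups did not overlap. The log2 fold change was 0.11 (standard error 0.09, interval −0.08 to 0.31, adjusted p = 0.533, edgeR). In the 13 alternative fits the estimates of EEF1A1, PABPC1 and TPT1 were all above 0. These fits reuse the same libraries, whose groups do not overlap in these genes, so the shared sign is not separate evidence.

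EEF1B2 and EEF1D encode the subunits of the eEF1B complex that exchange GDP for GTP on eEF1A, and they did not behave alike in the libraries. EEF1B2 (chromosome 2, 206159585 to 206162928) had 43.8 and 43.9 normalized CPM in WT and 41.8 and 41.4 in T4A. The T4A libraries were both lower, by a log2 fold change of −0.07 (standard error 0.09, interval −0.29 to 0.14, adjusted p = 0.721, edgeR). EEF1D (chromosome 8, 143579697 to 143599541) had 94.9 and 76.0 normalized CPM in WT and 53.1 and 92.5 in T4A. T4A replicate 1 was the lowest of the 4 libraries and T4A replicate 2 lay between the WT libraries, so the groups overlapped. The log2 fold change of −0.23 had an interval from −0.74 to 0.28 (standard error 0.22, adjusted p = 0.637, edgeR).

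EEF2 encodes the GTPase that moves the ribosome along the mRNA after each peptide bond. The gene (chromosome 19, 3976056 to 3985463) had 325 and 291 normalized CPM in WT and 178 and 321 in T4A. As in EEF1D, T4A replicate 1 alone was low, and T4A replicate 2 lay between the WT libraries. The log2 fold change was −0.30 (standard error 0.23, interval −0.83 to 0.22, adjusted p = 0.536, edgeR). Against the WT mean, T4A replicates 1 and 2 had log2 ratios of −0.79 and 0.06 for EEF2 and of −0.68 and 0.12 for EEF1D. The sign of both genes thus depended on the library. Without T4A replicate 1 the log2 fold change was 0.07 for EEF2 (adjusted p = 0.880, edgeR) and 0.12 for EEF1D (adjusted p = 0.735, edgeR). Without T4A replicate 2 it was −0.81 (adjusted p = 2.9e-09) and −0.70 (adjusted p = 2.4e-06) in edgeR's test, in which the single T4A library is assumed to vary as the WT libraries do. In that fit 2 of the 9 genes and 13.8% of all genes were called, and without T4A replicate 1 it was 0 of the 9 and 1.36%.

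**Figure D2:**
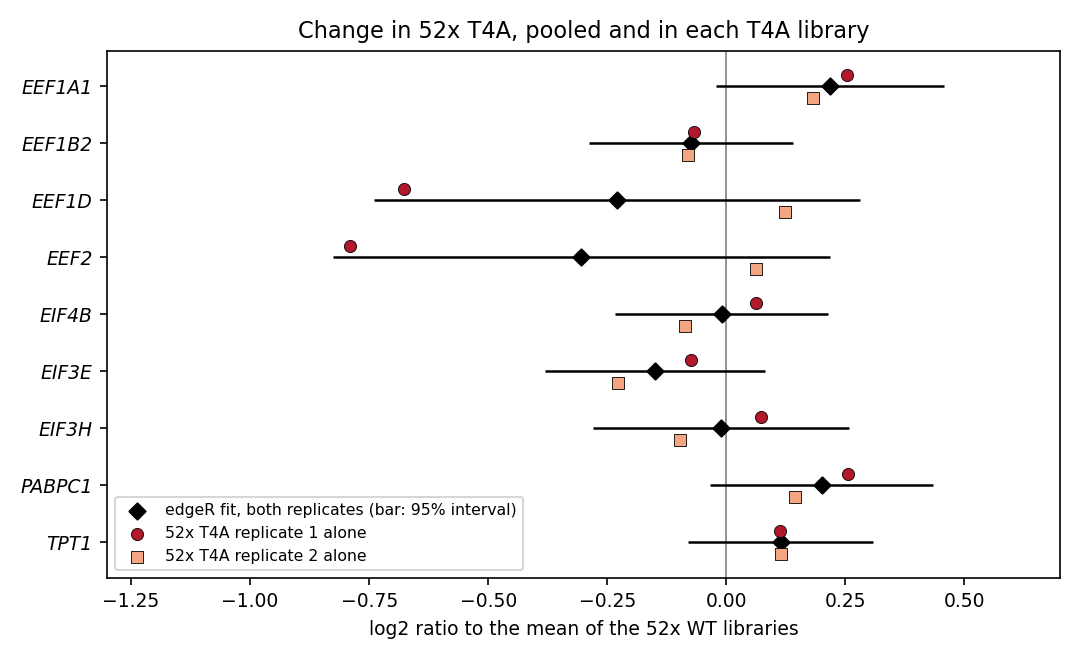
Log2 ratio to the WT mean (horizontal axis) of each gene, with diamonds for the edgeR log2 fold change over both T4A libraries, bars for its 95% interval, and circles and squares for T4A replicates 1 and 2 alone. All 9 intervals include 0, and the circles of EEF2 (−0.79) and EEF1D (−0.68) lie far from their squares (0.06 and 0.12).

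EEF2 and EEF1D were the genes of the group with the highest GC content. The GC content of the gene span was 59.5% for EEF2 and 62.0% for EEF1D, above 94.5% and 96.9% of the tested genes, and it lay between 37.0% and 45.2% in the other 7 measured genes. In T4A replicate 1 the median log2 ratio of all 619 tested genes with a GC content from 58 to 60% was −0.51, and that of the 442 genes from 60 to 62% was −0.78, while the other T4A library had medians of 0.09 and 0.11 there. Genes from 42 to 44% had a median of 0.08 in T4A replicate 1 and of −0.02 in the other. EEF2 and EEF1D were low in the library in which GC-rich genes as a whole were low. Whether GC content accounts for their low values, and why this library differed, was not tested. With the trend of each library on GC content removed, an alternative chosen after the data were seen, the log2 fold change was −0.07 for EEF2 (standard error 0.05, adjusted p = 0.409, edgeR) and 0.15 for EEF1D (standard error 0.08, adjusted p = 0.291, edgeR). TIGD5, which overlaps EEF1D on the other strand and has a GC content of 64.5%, had 7.61 and 6.99 normalized CPM in WT and 2.20 and 5.84 in T4A.

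**Figure D3:**
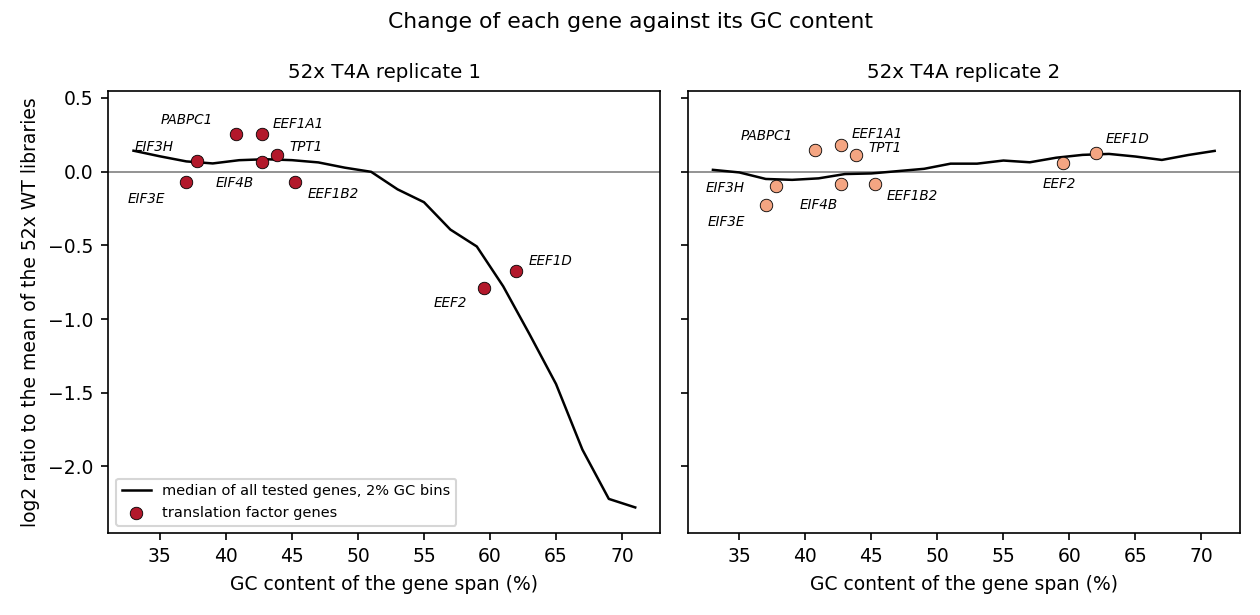
Log2 ratio to the WT mean (vertical axis) against the GC content of the gene span in percent (horizontal axis) in T4A replicate 1 (left) and T4A replicate 2 (right), with points for the 9 genes and a line for the median of all tested genes in bins of 2% that hold at least 20 genes. In T4A replicate 1 the line falls from 0.08 at 42 to 44% to −0.51 at 58 to 60% and −0.78 at 60 to 62%. There EEF2 is at −0.79, below the line, and EEF1D is at −0.68, above it. In T4A replicate 2 the line stays between −0.06 and 0.14.

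With the GC trend removed, the log2 fold change was 0.19 for EEF1A1 (standard error 0.05, adjusted p = 0.0225, edgeR) and 0.19 for PABPC1 (standard error 0.04, adjusted p = 0.0200, edgeR). Both passed the threshold there, with 2 of the 9 genes called against 10.4% of all genes. The normalized CPM of EEF1A1 then were 385 and 406 in WT and 446 and 459 in T4A, and those of PABPC1 were 343 and 347 in WT and 391 and 394 in T4A. EIF3E had a log2 fold change of −0.15 and TPT1 one of 0.09 in that fit, with adjusted p-values of 0.0569 and 0.329 (edgeR). A trend is fitted to each library in this alternative, and the test does not count that fit among its degrees of freedom.

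Of the initiation factor genes, EIF3E was lower in both T4A libraries, and EIF3H and EIF4B had overlapping groups. EIF3E and EIF3H encode subunits of eIF3, the complex that holds the small ribosomal subunit ready for the mRNA, and EIF4B encodes a cofactor of the helicase eIF4A. EIF3E had 238 and 258 normalized CPM in WT and 236 and 212 in T4A. Both T4A libraries were lower, T4A replicate 1 by little, with a log2 fold change of −0.15 (standard error 0.10, interval −0.38 to 0.08, adjusted p = 0.494, edgeR). Its estimate was below 0 in all 13 alternative fits, from −0.22 to −0.07. EIF3H (chromosome 8, 116642130 to 116766925), with the highest CPM of the 9 and rank 123 among all tested genes by mean count, had 479.7 and 530.0 normalized CPM in WT and 530.1 and 471.6 in T4A. A high and a low library stood in either group. The log2 fold change was −0.01 (standard error 0.12, interval −0.28 to 0.26, adjusted p = 0.969, edgeR). EIF4B (chromosome 12, 53006282 to 53042215) had 248 and 253 normalized CPM in WT and 262 and 236 in T4A. The T4A libraries lay on either side of the WT libraries, and the log2 fold change was −0.01 (standard error 0.10, interval −0.23 to 0.21, adjusted p = 0.967, edgeR). The intervals of these 3 genes reach down to 0.768-fold in EIF3E and up to 1.2-fold in EIF3H, so equal synthesis was not shown. TNS2-AS1, on the other strand, overlaps 81.6% of the counted span of EIF4B, and its log2 fold change was −0.15 (adjusted p = 0.629, edgeR).

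Per kilobase of countable span, the order of the levels differed from the order by CPM. The countable span is the listed span without the parts shared with genes of the same strand. In the WT libraries EEF2 had 33.0 ± 2.56 (SD, n = 2) normalized CPM per kilobase, TPT1 21.6 ± 0.159, EEF1B2 15.0 ± 0.00860, EEF1A1 10.8 ± 0.437, PABPC1 9.30 ± 0.269, EIF4B 7.35 ± 0.105, EEF1D 4.31 ± 0.674, EIF3H 4.05 ± 0.285 and EIF3E 0.886 ± 0.0516, each over 2 libraries. Neighbors in this order did not overlap in the WT libraries, except EEF1D and EIF3H. In T4A the order of the means was the same but for these 2 genes, which changed places, and EEF2 had 19.0 and 34.3 normalized CPM per kilobase in T4A replicates 1 and 2. The values for EEF1A1, PABPC1 and above all EIF3E are averages over spans longer than the RefSeq genes. The order, its first place included, therefore depends on the spans used, and levels over the RefSeq spans were not computed. Intron and exon reads were not separated, so a level per kilobase mixes the making of pre-mRNA with labeled RNA that was already spliced.

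The other genes of the translation apparatus were read from lists of known members. In these lists edgeR called 0 genes at an adjusted p-value below 0.05. DESeq2 (3.9% of all genes called) and the fit with the GC trend removed (10.4%) called some, which are named with each list after their values were seen. Of 11 other subunits of eIF3, 10 were tested, and edgeR called 0. EIF3F, whose mRNA is also described with a TOP start, was the highest, with 93.6 and 89.0 normalized CPM in WT and 112 and 109 in T4A (log2 fold change 0.28, standard error 0.09, adjusted p = 0.241, edgeR), and it alone had an unadjusted p-value below 0.05. It was also the only one called by DESeq2 (adjusted p = 0.0370) and with the GC trend removed (adjusted p = 0.0219, edgeR). EIF3G was the lowest, with 26.2 and 19.6 in WT and 11 and 21.5 in T4A (log2 fold change −0.50, adjusted p = 0.419, edgeR), and its GC content of 59.2% is like that of EEF2. Without T4A replicate 2 it was called as lower (log2 fold change −1.08). Of 27 other initiation factor genes, 25 were tested and edgeR called 0, with a median log2 fold change 0.03 above that of all genes. EIF1AX, a factor for start codon scanning, was the highest (log2 fold change 0.27, adjusted p = 0.256, edgeR). EIF2B3, a subunit of the exchange factor of eIF2, was the lowest, with 189 and 192 normalized CPM in WT and 152 and 148 in T4A (log2 fold change −0.34, standard error 0.09, adjusted p = 0.204, edgeR). DESeq2 called these 2 genes, EIF1AX as higher (adjusted p = 0.0185) and EIF2B3 as lower (adjusted p = 0.00211). With the GC trend removed 5 of the 25 were called, EIF1AX, EIF2A and EIF5 as higher and EIF2B3 and EIF4G3 as lower. Without T4A replicate 2 EIF2B3 alone was called.

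Among 12 other elongation and termination factor genes, 9 were tested, and edgeR called 0. EEFSEC, the elongation factor for selenocysteine, was at −0.28 on the log2 scale (adjusted p = 0.263, edgeR), and it was the only one called by DESeq2 (adjusted p = 0.0222) and with the GC trend removed (adjusted p = 0.00257, edgeR), as lower in both. ETF1, the release factor, was the highest (log2 fold change 0.15, adjusted p = 0.532, edgeR). EEF1A2, the close relative of EEF1A1 that serves muscle and neurons, was the lowest, with only 1.49 to 3.68 normalized CPM in the 4 libraries (log2 fold change −0.59, adjusted p = 0.418, edgeR) and a GC content of 63.4%. It was called as lower without T4A replicate 2. EEF1E1 is listed at 0 counts in all 4 libraries. A 0 can also mean a span shared with a gene of the same strand, as in EEF1G, so absence of the RNA was not shown. Of 13 genes of the poly(A)-binding protein family and its partners, 9 were tested, and edgeR called 0. PABPC4, the nearest expressed relative of PABPC1, was the highest, with 305 and 274 normalized CPM in WT and 369 and 344 in T4A (log2 fold change 0.30, standard error 0.11, adjusted p = 0.257, edgeR), so that both T4A libraries lay above both WT libraries as in PABPC1. PABPC4 was the only one called, as higher, by DESeq2 (adjusted p = 0.0164), with the GC trend removed (adjusted p = 0.00655, edgeR) and without T4A replicate 2 (adjusted p = 0.0306, edgeR). PAN2, a subunit of a deadenylase, was the lowest (log2 fold change −0.20, adjusted p = 0.489, edgeR).

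Of 9 other genes whose RNAs are known with a TOP start, 8 were tested and edgeR called 0, and 7 lay above the median gene. NPM1, a nucleolar protein, was the highest, with 737 and 749 normalized CPM in WT and 889.6 and 849 in T4A (log2 fold change 0.23, adjusted p = 0.394, edgeR), and NACA the lowest (log2 fold change −0.03, adjusted p = 0.931, edgeR). NPM1 was the only one called by DESeq2 (adjusted p = 0.0305) and with the GC trend removed (adjusted p = 0.0119, edgeR). Of 79 cytosolic ribosomal protein genes 74 were tested. In edgeR's test 0 were called, and 14 of the 74 (18.9%, all higher) had an unadjusted p-value below 0.05, against 7.45% of all genes. Both T4A libraries lay above both WT libraries in 44 (59.5%), against 24.8% of all genes. Their median was 0.11 above that of all genes, against −0.01 for the translation factor genes, and 58 of 74 lay above the median gene, against 3 of 9. The difference between these lists was not tested. RPS20 was the highest (log2 fold change 0.32, adjusted p = 0.218, edgeR). RPS15, with a GC content of 62.7%, was the lowest, with 99.2 and 84.6 normalized CPM in WT and 40.4 and 96.1 in T4A, low in T4A replicate 1 alone as EEF2 and EEF1D were. Without T4A replicate 1 the median of the ribosomal protein genes was 0.13 above that of all genes and that of the translation factor genes 0.06 above it. Without T4A replicate 2 these differences were closer together, at 0.08 and 0.05. They were 0.10 and −0.09 without WT replicate 1, and 0.07 and −0.01 without WT replicate 2. DESeq2 called 5 as higher (6.76%, against 3.9% of all genes), namely RPL24, RPL30, RPS12, RPS15A and RPS20. With the GC trend removed 13 were called, all higher (17.6%, against 10.4% of all genes), and without T4A replicate 2 it was 8, all lower (10.8%, against 13.8%).

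Of 19 genes for regulators of TOP mRNA translation, 17 were tested and edgeR called 0, with a median log2 fold change 0.16 below that of all genes. Both T4A libraries lay below both WT libraries in 9 of the 17, against 24.7% of all genes, and above them in 2 (24.8%). Such shares also departed from those of all genes in other lists. Of the 25 other initiation factor genes, 11 lay above and 4 below. Of the 9 genes of the poly(A)-binding list, 2 lay above and 4 below. PDCD4, an inhibitor of eIF4A, was the highest (log2 fold change 0.18, adjusted p = 0.430, edgeR). MLST8, an mTOR complex subunit with a GC content of 61.9%, was the lowest, with 6.34 and 4.72 normalized CPM in WT and 1.07 and 4.37 in T4A (log2 fold change −1.02, standard error 0.50, adjusted p = 0.368, edgeR). The 3 genes with an unadjusted p-value below 0.05 were chosen for mention after their values were seen. EEF2K, the kinase that inhibits the protein of EEF2, had a log2 fold change of −0.32, LARP1B one of −0.26 and MTOR one of −0.25, with adjusted p-values of 0.236, 0.317 and 0.278 (edgeR). MTOR had 302 and 294 normalized CPM in WT and 258 and 242 in T4A, and it was the only one called by DESeq2, as lower (adjusted p = 0.0312). The median of the list was 0.15 below that of all genes without T4A replicate 1 and 0.15 below it with the GC trend removed. In the latter fit 5 of the 17 were called, all lower, namely EEF2K, LARP1, LARP1B, MTOR and RPTOR, against 10.4% of all genes called in either direction. Without T4A replicate 2 the log2 fold change was −1.42 for AKT1, −2.37 for MLST8, −0.78 for RPS6KB2 and −1.07 for TSC2. These values rest on T4A replicate 1 alone, the library in which GC-rich genes as a whole were low. None of these genes was called with the GC trend removed.

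**Figure D4:**
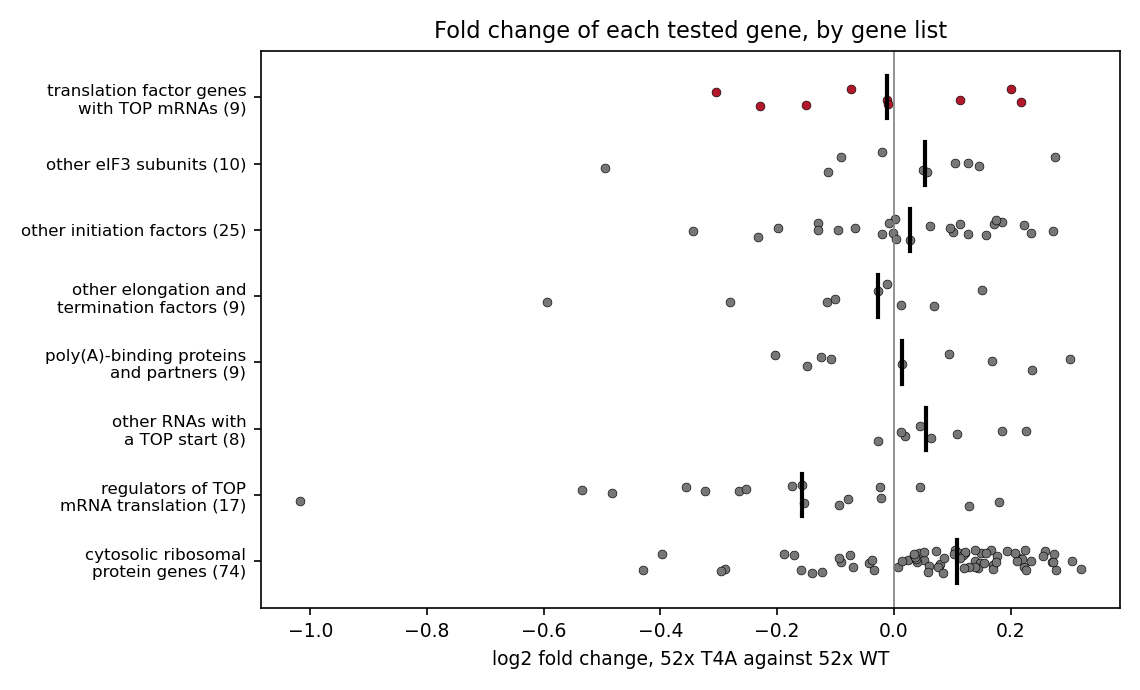
Log2 fold change of T4A against WT (horizontal axis) of each tested gene, 1 point per gene, by list, with a bar at the median of each list and the number of tested genes in brackets. The 9 translation factor genes with TOP mRNAs spread from −0.30 to 0.22 around a median of −0.01, and the 74 ribosomal protein genes have a median of 0.11.

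The genes with a profile most like the sum of the 9 genes were sought among 7033 other protein-coding genes with a mean of at least 1000 counts. Likeness was the Euclidean distance between log2 CPM over the 4 libraries, each centered on its mean. The nearest were TTI2 (distance 0.0072), SON (0.014), TCP11L1 (0.027), HDHD5 (0.030) and HSP90AA1 (0.031). These genes differed little among the 4 libraries. SON, for one, had 228 and 232 normalized CPM in WT and 232 and 233 in T4A. The sum adds genes whose T4A values lay above, below and around those of WT, so the likeness holds for the sum and was not computed for single genes.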

How the data were processed

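The authors deposited raw counts per gene for 4 TT-seq libraries (2 WT, 2 T4A) in a featureCounts table of uniquely aligned reads. The submitters' processing notes list cutadapt 4.6, STAR 2.7.11b, FastQC, Picard and deepTools 3.5.6 and the build GRCh38. The counting options are not given in the sources used here. Gene names, types and the GC content of gene spans came from a GRCh37 lift of GENCODE by stable identifier (58702 names and 58699 GC values for 60708 genes), and coordinates are those of the table. Library totals were 39249066, 45605027, 33853507 and 33188536 counts for WT replicates 1 and 2 and T4A replicates 1 and 2.

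Groups and replicate numbers came from the sample titles. T4A was tested against WT with edgeR 4.0.16 in R 4.3.3 (TMM normalization, default filter on low counts, quasi-likelihood test, Benjamini-Hochberg adjustment over all 23321 tested genes, called at an adjusted p-value below 0.05). The procedure was checked on simulated data that had no GC trend and no outlying library, so the check does not cover these features. Standard errors were derived from the F statistic, and fold changes are those of the fit. Normalized CPM are counts divided by TMM-scaled library size. The GC trend was a lowess curve of each library on GC content, used as an offset. DESeq2 1.42.0 and other settings were alternatives.

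The genes and lists were chosen with earlier results of these data known. Named were the 10 genes, POLR2A, the highest and lowest gene of each list with a mean count of at least 50, the relatives EEF1A2, EEF1E1, PABPC4 and EIF3F, and the 5 genes nearest in profile. Of the genes that overlap the 10 genes, only some are printed. Replicate numbers were not used as pairs, because no source shared by libraries with the same number is stated. Over all tested genes the deviations of such libraries from their group means had a correlation of 0.0050, which does not by itself settle the pairing. A fit with the replicate number as a block was an alternative.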

Additional observations from a re-analysis of the deposited data

How the results depend on the processing

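The estimates of EEF1A1, PABPC1, TPT1 and EIF3E kept their sign in all 13 alternative fits. The fits reuse the same 4 libraries, and the groups did not overlap in these genes, so they are not separate evidence. For the other genes the sign turned in some, no value with a turned sign passed the threshold, and the cause was not tested. With library size in place of TMM the log2 fold change was 0.039 for both EIF4B and EIF3H, with the upper quartile it was 0.068 for both and 0.0038 for EEF1B2, and among protein-coding genes alone 0.023 for EIF4B and 0.022 for EIF3H. With the GC trend removed EEF1D turned to 0.15. With 1 library left out the log2 fold change ran from −0.81 to 0.067 for EEF2 and from −0.70 to 0.12 for EEF1D (both above 0 without T4A replicate 1), from −0.079 to 0.048 for EIF4B (above 0 without T4A replicate 2) and from −0.093 to 0.055 for EIF3H (above 0 without WT replicate 2 or T4A replicate 2).

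The count of the 9 genes called was 0 except for 2 with the GC trend removed and 2 without T4A replicate 2, so it ran from 0 to 2 with 1 library left out. Against 1 gene called over the table, there were 150 with no filter on low counts, 910 with DESeq2, 533 with the replicate number as a block, 2402 with the GC trend removed, and from 0 to 3466 when a library was left out (3 and 0 without WT replicates 1 and 2, 333 and 3466 without T4A replicates 1 and 2). The replicate block called 0 of the 9 genes (2.29% of all genes) and, in the other lists, RPS2, RPS15 and MLST8, all lower. The median of the genes less that of all genes was −0.091 with no filter, where the median of all genes was 0.056 and EEF1G was added, 0.032 with protein-coding genes only, and −0.15 for the 2 genes without named pseudogenes and EIF3E, of which 0 had both T4A libraries above both WT libraries. With 1 library left out it ran from −0.089 (without WT replicate 1) to 0.064 (without T4A replicate 1). The 9 genes held at least 1404 counts a library, and EEF1G at most 1. With 2 libraries a group, exact permutation of a single value cannot give a two-sided p below 0.333.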
